A study of Drosophila melanogaster with 384 samples.

Results

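The pericentromeric regions are the rows of the count table that lie in the heterochromatin-rich stretches next to the centromeres of 4 chromosome arms. They were chosen by position in the dm6 assembly and span bases 22003061 to 23488894 of 2L, 22900094 to 28091987 of 3L, 1 to 4198259 of 3R and 22600206 to 23507352 of X. These 4 stretches are called blocks here. The rule took 1777 of the 68775 listed regions, 743 of them in the 3L block, 457 in the 3R block and the others on 2L and X. They are compared with the 54140 other listed regions of the same 4 arms. The rule used position and no counts. Each listed region is a stretch of non-coding sequence delimited by how well it is conserved among fly species. The study describes a larger set of such regions for the whole genome. How the listed rows were chosen from it is not given in the sources used here. Shares and densities below therefore hold for listed regions only.

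The data are single-cell ATAC-seq profiles, a readout of DNA that a transposase can reach, from cells captured in the chambers of a Fluidigm C1 device. All cells came from 1 group, the fly strain F2-B(sens)-GFP, of genotype w;F2-B/CyO, in which an intronic enhancer of senseless that is targeted by Atonal drives GFP. A total of 200 eye-antennal discs, the larval epithelia that give rise to the eye, antenna and head, were dissected from wandering larvae of the last instar, and live GFP-positive cells were sorted. There was no control sort, the labels do not tie cells to an animal or chip, and GFP marks the cells in which the enhancer is or was active, so the 72 cells of the table were treated as 1 sample and no test across cells was made.

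Depth ran between 908 and 5892 counts a cell, with a median of 2694.5, and 2 cells had under 1000. Intervals given below are 95% intervals, exact Poisson for counts, exact binomial for ratios of densities and Wilson for shares. They cover counting error only: amplified reads carry no molecular identifiers and need not be separate molecules, and the cells varied more than that. The identity of the sorted cells was not examined here.

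Pericentromeric heterochromatin holds long arrays of satellite DNA and remnants of transposable elements. In flies its nucleosomes carry methylated lysine 9 of histone H3, which is bound by heterochromatin protein 1, and it compacts and replicates late. It still houses many genes, some of them with very long introns filled with repeats, and certain ones, light among them, lose expression when moved away from heterochromatin. The repeats matter for any count made from short reads, because a read from a repeat fits several places in the genome.

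The sequences around 6 transcription start sites (TSS) are shown first because their regions carry the counts described below. They are followed by a stretch from the longest region, most of which did not count as unique by the measure used below. Each is read from the RefSeq Release 6 assembly, which shares its coordinates with dm6, 5′ to 3′ in the direction of the gene. The first 200 bases precede the annotated TSS, whose base is the single capital followed by the last 29 bases. Runs of capitals mark matches to the cores described after the sequences. The tio region had the most counts and the most cells of the 2L block (chr2L:22019008-22019237, plus strand), Clamp is a second gene of that block (chr2L:22169114-22169343, minus strand), and RpL5 lies deeper in it (chr2L:22536621-22536850, minus strand). The scro region had the most counts of the 3L block (chr3L:24723962-24724191, plus strand), the Gfat1 region the most counts of any promoter of the 3R block (chr3R:4130321-4130550, plus strand) and the fog region the most counts of the X block (chrX:22855165-22855394, minus strand). The last line gives the 150 central bases of the first listed region of 3R (chr3R:97766-97915, plus strand).
tio: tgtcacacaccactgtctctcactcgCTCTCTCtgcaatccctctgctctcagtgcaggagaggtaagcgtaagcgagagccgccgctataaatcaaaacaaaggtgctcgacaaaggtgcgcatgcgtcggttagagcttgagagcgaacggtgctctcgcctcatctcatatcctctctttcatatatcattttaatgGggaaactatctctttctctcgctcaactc
Clamp: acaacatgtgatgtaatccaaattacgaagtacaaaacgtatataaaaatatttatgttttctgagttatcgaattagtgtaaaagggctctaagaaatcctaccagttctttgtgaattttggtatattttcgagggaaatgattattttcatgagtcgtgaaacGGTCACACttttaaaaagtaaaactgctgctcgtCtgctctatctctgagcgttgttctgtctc
RpL5: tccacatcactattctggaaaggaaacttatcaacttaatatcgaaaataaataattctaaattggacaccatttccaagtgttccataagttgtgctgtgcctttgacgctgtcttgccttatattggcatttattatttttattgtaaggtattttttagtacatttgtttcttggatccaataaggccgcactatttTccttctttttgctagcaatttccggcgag
scro: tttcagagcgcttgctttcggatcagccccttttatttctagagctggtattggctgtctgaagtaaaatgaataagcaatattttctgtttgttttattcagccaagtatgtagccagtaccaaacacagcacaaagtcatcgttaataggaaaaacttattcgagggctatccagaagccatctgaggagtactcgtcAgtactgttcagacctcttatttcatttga
Gfat1: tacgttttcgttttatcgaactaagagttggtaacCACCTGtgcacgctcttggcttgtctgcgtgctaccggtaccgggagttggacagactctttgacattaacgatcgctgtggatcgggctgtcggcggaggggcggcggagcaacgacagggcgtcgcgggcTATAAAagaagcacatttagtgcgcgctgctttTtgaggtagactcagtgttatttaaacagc
fog: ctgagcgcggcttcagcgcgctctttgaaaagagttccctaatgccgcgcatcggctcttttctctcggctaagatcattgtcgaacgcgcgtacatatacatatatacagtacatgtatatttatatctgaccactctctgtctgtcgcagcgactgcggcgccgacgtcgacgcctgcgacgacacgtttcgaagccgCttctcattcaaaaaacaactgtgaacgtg
centre of the first region of 3R: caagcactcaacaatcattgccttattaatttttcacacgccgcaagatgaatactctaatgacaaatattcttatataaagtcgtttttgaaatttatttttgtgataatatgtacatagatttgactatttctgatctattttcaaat

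The search used 7 cores on both strands over the 230 bases around every annotated TSS. These are TATCGATA (the DRE core of many housekeeping promoters), GAGAGAG (bound by GAGA factor), GGTCACAC (core promoter motif 1), ACCGGTT (bound by Grainyhead), CAGGTG (an E-box of the type bound by Atonal) and the simple words AAGAGAAG and AATATAAT. TATAAA was added after the sequences had been seen, on the strand of the gene and starting 45 to 20 bases before the TSS. The matches printed do not overlap each other. The capitals in tio are the GAGA factor core on the opposite strand, those in Clamp the motif 1 core 34 bases before the TSS, and those in Gfat1 a CAGGTG on the opposite strand and a TATAAA 33 bases before the TSS. RpL5, scro and fog held none of the 8 words in these windows.

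The motif 1 core was rare in pericentromeric TSS windows. It was in 1 of 290 pericentromeric TSS windows (0.345%, interval 0.0609% to 1.93%), which is the Clamp window shown, against 874 of 18240 windows of the rest of the arms (4.79%, 4.49% to 5.11%). In whole promoter regions of 500 to 2000 bp it was in 0.730% of pericentromeric regions (0.129% to 4.02%, 1 region) and in 6.02% of others. Over promoter regions of all lengths, of which the long pericentromeric ones offer more bases, the shares were 4.68% (2.63% to 8.19%) and 6.11%. The DRE core was as frequent in pericentromeric TSS windows, at 6.21% (3.96% to 9.60%), as in the others, at 6.13%, and TATAAA was in 6.90% (4.51% to 10.4%) and 6.19%. The other 5 words differed by less than the interval of the pericentromeric share: the GAGA factor core was in 4.83% against 6.04%, the Atonal-type E-box in 5.86% against 7.36% and the Grainyhead core in 1.38% against 1.41%. The 2 satellite words were in 1.38% against 0.948% (AAGAGAAG) and 5.17% against 4.34% (AATATAAT). The windows were poorer in G and C, with a median of 34.3% in the pericentromeric windows and 39.6% in the rest. A match is only a match of letters.

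The same words were counted in whole promoter regions of 500 to 2000 bp. The DRE core was in 11.7% of pericentromeric promoter regions (7.32% to 18.1%) and 6.95% of others, and AATATAAT in 29.2% (22.2% to 37.3%) and 16.7%. The GAGA factor core was in 11.7% (7.32% to 18.1%) and 18.5%. Over promoter regions of all lengths it went the other way, at 26.4% (21.2% to 32.4%) and 16.8%. The Grainyhead core was in 7.30% (4.01% to 12.9%) and 4.73%, the Atonal-type E-box in 21.2% (15.2% to 28.7%) and 25.8%, and AAGAGAAG in 2.92% (1.14% to 7.27%) and 4.2%, all with the other share inside the interval.

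Whole distal regions of 500 to 2000 bp differed most for the DRE core. It was in 60 of 659 pericentromeric regions (9.10%, 7.14% to 11.5%) and in 556 of 35554 others (1.56%, 1.44% to 1.70%). The regions that held it were not denser, with 1.19 counts per kb against 1.26 in pericentromeric regions without it. AATATAAT was in 20.5% (17.6% to 23.7%) and 14.1%, the Grainyhead core in 5.31% (3.84% to 7.30%) and 2.96%, and the Atonal-type E-box in 24.7% (21.6% to 28.2%) and 25.0%.

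Pericentromeric regions were sparsely covered per base, and yet the share of them with a count was close to that of other regions. Together they held 4693 counts on 8348.1 kb, or 0.562 counts per kb (0.546 to 0.578), against 151226 counts on 53198.8 kb, or 2.84 counts per kb, in the other regions of the same arms. The ratio of these densities was 0.198 (0.192 to 0.204). At least 1 count was found in 1482 of the 1777 pericentromeric regions (83.4%, 81.6% to 85.1%), where the background share among the other regions was 81.1%. Both are shares of listed regions, and a choice of rows that depended on counts could have raised them. The members are long: their median length was 2280 bp against 883 bp for the rest, so a thin density was spread over more bases. A count in at least 5 cells was found in 10.7% of pericentromeric regions (background 12.7%), and at least 20 counts in 12 (0.675%, background 1.58%). Within each kind, over all lengths, the share with at least 5 cells was not lower. It was 26% of pericentromeric promoter regions against 24.7% of the others and 8.43% of pericentromeric distal regions against 8.21%. At like length, distal regions of the blocks had the lower share in every length class. It was 0.890% against 6.84% at 500 to 1000 bp and 3.97% against 17.3% at 2 to 5 kb. Promoter regions went both ways by length, with 28.6% against 32.9% at 1 to 2 kb and 14.3% against 4.24% up to 500 bp. The blocks also hold proportionally fewer promoter regions than the rest.

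The composition of the members bears on these values. Of their bases, 53.2% start a 50-mer that occurs once in the genome, against 96.4% in the rest of the arms, 16.4% lie in annotated transposons against 3.72%, and 39.4% are masked as repeats against 19.7%. The read length is not given in the sources used here. A read from a repeat is placed by Bowtie2, in its default mode, at 1 of its best sites, and no filter on mapping quality is described, so counts in repeats cannot be assigned to 1 copy.

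Promoter regions, those within 500 bp of an annotated TSS, were denser than distal regions inside heterochromatin as they were outside it. Pericentromeric promoter regions had 996 counts, or 1.34 per kb (1.25 to 1.42), against 4.59 per kb in 14833 promoter regions of the rest, a ratio of 0.291 (0.273 to 0.310). The 1542 pericentromeric distal regions had 3697 counts, or 0.486 per kb (0.471 to 0.502), against 2.22 per kb in 39307 distal regions, a ratio of 0.219 (0.212 to 0.226). Promoters thus took 21.2% of the pericentromeric counts (20.1% to 22.4%), on 745.9 of the 8348.1 kb. In the rest of the arms they took a larger share, 63879 of 151226 counts, on 13920.3 of 53198.8 kb. Taken region by region, the median density was 1.36 per kb in pericentromeric promoters against 2.61 per kb in the others, and 0.574 per kb in pericentromeric distal regions against 1.44 per kb.

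Much of the gap went with the length of regions. Promoter regions of 500 to 1000 bp had 3.93 counts per kb in the blocks (3.42 to 4.49, 74 regions) and 5.01 in the rest, and those of 1 to 2 kb had 3.95 (3.54 to 4.40, 63 regions) and 4.57. In the shortest class, to 500 bp, the 14 pericentromeric promoter regions had 9.35 per kb (6.11 to 13.7) against 5.71. Here the blocks did not lie below the rest. Distal regions of 500 to 1000 bp had 1.51 per kb in the blocks (1.37 to 1.67) and 2.59 in the rest, those of 2 to 5 kb had 0.668 (0.624 to 0.713) and 1.31, and those over 20 kb had 0.259 (0.235 to 0.285, 47 regions) and 0.223 (0.157 to 0.307, 6 regions). With the other regions reweighted to the length deciles of the pericentromeric ones, the ratio was 0.660 for all regions, 0.755 for promoters and 0.698 for distal regions. Length and repeat content move together: the pericentromeric distal regions of 500 to 1000 bp were 95.6% unique and those over 20 kb 33.2%.

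**Figure D1:**
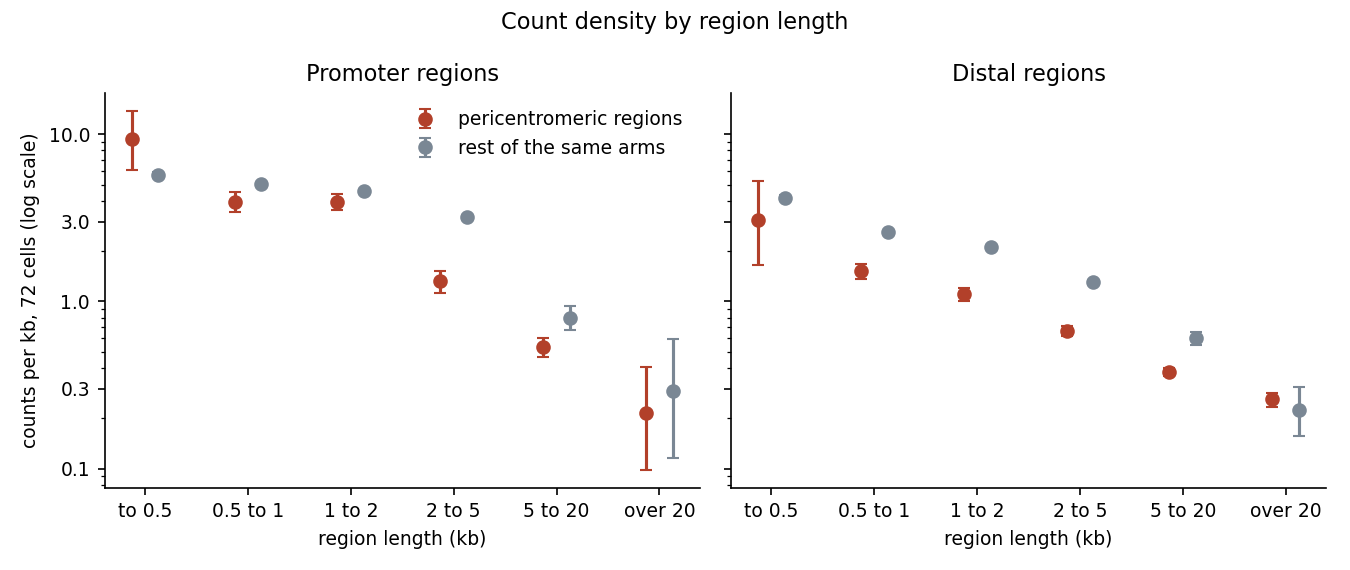
Counts per kb summed over 72 cells (log axis) against the length of regions in kb, for promoter (left) and distal regions (right); points are pericentromeric regions and the rest of the same arms, with 95% Poisson intervals. Density falls with length in both, with 9.35 counts per kb in the shortest and 0.214 in the longest pericentromeric promoter regions, and distal regions over 20 kb have 0.259 in the blocks and 0.223 in the rest.

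Unique sequence alone did not close the gap. Among regions with at least 90% unique 50-mers, 904 pericentromeric regions had 1.37 counts per kb (1.31 to 1.43) and 53176 others had 2.96, a ratio of 0.464 (0.444 to 0.485). For promoters of this kind the values were 3.15 per kb in pericentromeric regions and 4.72 in the rest, and for distal regions 1.07 per kb in 737 pericentromeric regions and 2.32 in the rest. The 616 members in the most unique class, with hardly any repeated 50-mer, had 1.80 per kb (1.70 to 1.90) against 2.96. In the least unique class, up to 25%, pericentromeric regions had 0.166 per kb and others 0.399. With uniqueness and length both held, the ratio was 0.564 for all regions, 0.725 for promoters and 0.592 for distal regions.

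Annotated transposon content separated the members little, but the class without it was not free of repeats. Distal members with no annotated transposon were 55.4% unique and 36.1% masked as repeats, against 99.6% and 17.8% in the rest. The annotation also changed with depth. On 3L it covered 65.9% of bases at 500 kb to 1 Mb inside the block and 10.6% at 1 to 2 Mb, where 36.5% and 37.1% were masked. The part played by transposons was therefore not tested. Distal pericentromeric regions with no annotated transposon had 0.521 counts per kb (1031 regions), those with under 50% of transposon bases 0.408 and those with at least 50% 0.513. In the rest of the arms the same classes had 2.32, 1.66 and 0.579 per kb. Regions made mostly of transposons were thus alike per kb, but they were 55.9% unique inside the blocks and 28.2% unique outside. Per kb of unique sequence they had 0.917 counts inside and 2.05 outside. Distal members inside a transcript had 0.550 per kb and those between transcripts 0.412.

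The 4 blocks differed. The X block had 1.11 counts per kb (1.01 to 1.22, 458 counts), the 2L block 0.956 (0.894 to 1.02, 896 counts), the 3L block 0.513 (0.491 to 0.537, 1952 counts) and the 3R block 0.434 (0.411 to 0.457, 1387 counts). The intervals of X and 2L touch, and those of 3L and 3R do not. Relative to the rest of their own arm the ratios were 0.381 for X, 0.348 for 2L, 0.179 for 3L and 0.153 for 3R. Unique sequence had the same order, with 79.5% of the bases in the X block, 67% in 2L, 53.1% in 3L and 46% in 3R. Annotated transposons did not, with 23% in X, 23.4% in 2L, 20.7% in 3L and 8.48% in 3R. The share of bases masked as repeats was 25.0%, 36.2%, 37.7% and 44.3% in the same order of blocks. Per kb of unique sequence X and 2L had 1.40 and 1.43 counts, and 3L and 3R 0.967 and 0.943. Promoter regions kept a different order, with 2.04 per kb in 2L, 1.89 in X, 1.42 in 3R and 0.983 in 3L, and the intervals of 2L (1.82 to 2.28) and X (1.53 to 2.31) overlap. Chromosome 4, which is also rich in heterochromatin, had 2.43 per kb over 628 regions, and the Y had 0.193.

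Pooled over the arms, density declined inside the boundary rather than stepping down at it. In the outermost 100 kb of the blocks the regions had 1.90 counts per kb (1.74 to 2.07), at 100 to 200 kb 1.11, at 200 to 500 kb 0.782, at 500 kb to 1 Mb 0.600, at 1 to 2 Mb 0.506, at 2 to 3 Mb 0.420, and beyond 3 Mb 0.369 (0.345 to 0.395). The 500 kb outside the boundary had 2.33 per kb. Promoters of the outermost 100 kb had a pooled 5.25 per kb (4.59 to 5.98, 36 regions), more than the 4.29 per kb of promoters in the 500 kb outside. The pooled value leans on 3 regions of at least 20 counts. The median promoter region went the other way, with 2.21 per kb inside and 2.57 outside, as did the share with a count, 83.3% and 87.5%. From 1 to 2 Mb inside, 30 promoter regions still had 1.54 per kb (1.31 to 1.79). Unique sequence fell along the same path, 89.7% in the outermost 100 kb and 39.1% beyond 3 Mb. Per kb of unique sequence the decline was shorter, with 2.12 counts in the outermost 100 kb, 1.01 at 500 kb to 1 Mb and 0.944 beyond 3 Mb. The arms behind these bins change: X has no members beyond 1 Mb, and beyond 2 Mb only 3L and 3R remain. Single arms dropped more sharply, at different depths. From the outermost 100 kb to 100 to 200 kb, 3R fell from 2.21 to 0.659 counts per kb and 3L from 1.89 to 0.668. Between 100 to 200 kb and 200 to 500 kb, 2L fell from 2.16 to 0.630. X fell from 1.42 at 200 to 500 kb to 0.272 at 500 kb to 1 Mb. Over these steps the median region hardly moved on 3L, from 1.14 to 1.06 per kb. It went from 1.15 to 0.742 on 3R, 1.70 to 0.606 on 2L and 1.08 to 0.224 on X. Unique sequence fell in the same steps, from 79.1% to 54.2% on 3R and 95.7% to 75.4% on 3L. On 2L it fell from 93.4% to 64.2% and on X from 85.6% to 51.3%. The bins are small, with 18 regions on 3R at 100 to 200 kb.

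The boundary of the rule fits the arms unequally. On X the stretch 500 kb to 1 Mb outside it had only 0.294 counts per kb (0.235 to 0.363) and was 25.1% unique, lower than the 1.42 per kb of the 100 kb just inside. On 2L, 3L and 3R the stretches outside had 2.27 to 3.35 per kb. The region nearest the boundary inside it had 1 count on 2L, 0 on 3L, 0 on 3R and 4 on X, and the nearest outside had 2, 2, 2 and 1.

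**Figure D2:**
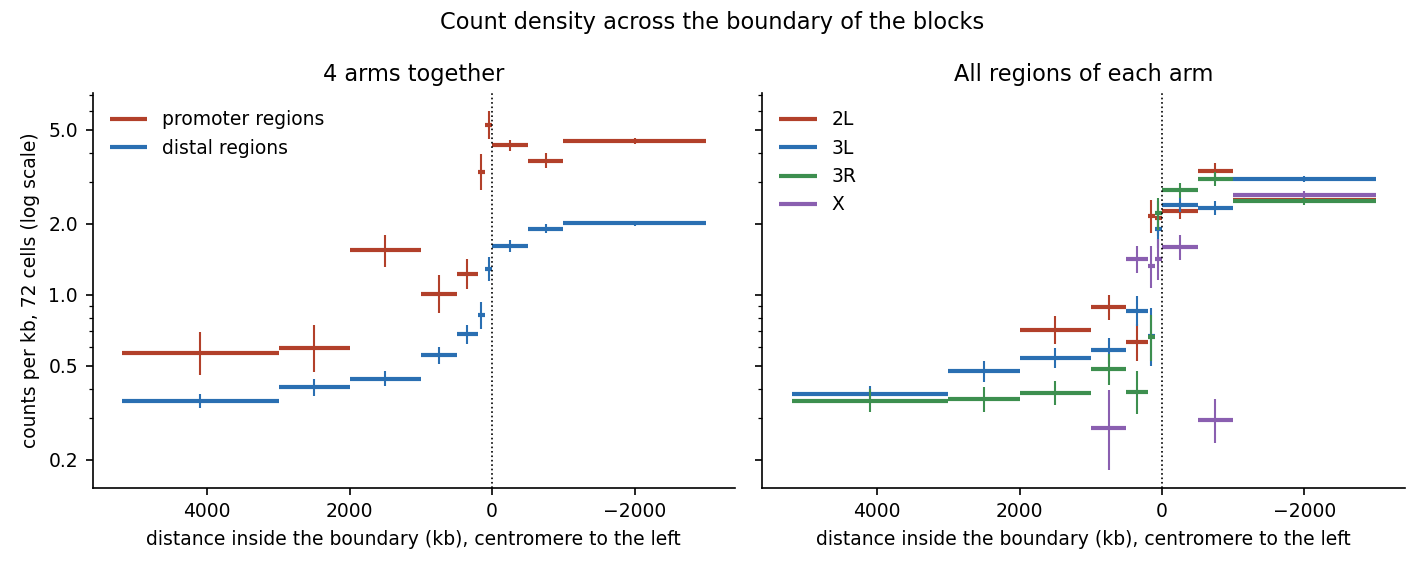
Counts per kb over 72 cells (log axis) against distance inside the boundary of the blocks in kb, centromere to the left and negative values outside; bars span a bin and thin lines are 95% Poisson intervals. Left, promoter and distal regions of the 4 arms: promoters of the outermost 100 kb have a pooled 5.25 per kb, against 4.29 in the 500 kb outside. The medians of single promoter regions, not drawn, are 2.21 and 2.57. Both kinds thin out inward. Right, each arm: X is low (0.294 per kb) at 500 kb to 1 Mb outside.

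The densest members were promoters of genes close to the boundary. Of the 10 promoter regions of at least 200 bp with most counts per kb, 5 lay on 3R, 4 on 2L and 1 on 3L, and 9 lay within 200 kb of the boundary. They had 6 to 39 counts in 6 to 25 cells, and 15.0 to 31.2 counts per kb. Their uniqueness was at least 90% for 9 of the 10.

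The region over the start of tio, a zinc finger transcription factor gene whose paralog is teashirt, had 39 counts (27.7 to 53.3) in 25 of 72 cells, or 30.9 per kb (chr2L:22018220-22019483, shared with lncRNA:CR33987). No cell had more than 4 of these counts, and no other member was found in as many cells. An intronic region of tio 4603 bp from the nearest TSS added 21 counts in 18 cells, 9.98 per kb, and was among the 10 densest distal members (chr2L:22023925-22026028). They lie 18219 and 23924 bp inside the boundary of the 2L block, at percentiles 99.2 and 94.8 of promoter and distal regions in the rest of the arms.

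At the 3R edge, a region beside the start of CG12581 had 20 counts in 17 cells, or 31.2 per kb, the highest density of all ranked members (chr3R:4174754-4175393). Gfat1, the first enzyme of the hexosamine pathway, had 37 counts (26.1 to 51) in 23 cells at its start, or 26.2 per kb (chr3R:4129663-4131072). The start of CR33294 had 18 counts in 15 cells and that of beta-Man, a beta-mannosidase, 10 counts in 10 cells. These regions were wholly unique by 50-mers. Gfat1 stood at percentile 98.5 of promoter regions in the rest of the arms, and CG12581 at 99.2.

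Clamp, a zinc finger protein that binds GA repeats and helps dosage compensation of the X, had 24 counts in 15 cells at its start, or 20.3 per kb (chr2L:22168535-22169716, shared with lncRNA:CR44809). CG42748 had 20 counts in 15 cells. The only one of the 10 that lay deep in a block was a 280 bp region at the start of CG12567, 1174133 bp inside the 2L boundary, with 6 counts in 6 cells. Its interval of 7.86 to 46.6 per kb is wide because it rests on so few counts.

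Deeper blocks had single strong promoters too. The start of scro, a homeobox gene of the NK-2 class, had 21 counts (13 to 32.1) in 16 cells, 11.5 per kb, although it lies 1823076 bp inside the 3L boundary (chr3L:24723077-24724896). It led its block. On X, the start of fog, which encodes a secreted ligand of epithelial folding, led with 14 counts in 8 cells, 10.9 per kb (chrX:22854459-22855742). Among promoter regions of the rest of the arms they stood at percentiles 86.2 (scro) and 85 (fog).

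Distal members reached lower densities. The 10 densest had 3 to 21 counts and 5.30 to 12.1 per kb, with 4 on X, 3 on 2L, 2 on 3R and 1 on 3L. The first was an intronic region of Mes2 with 7 counts in 6 cells, 12.1 per kb (chr3L:22948635-22949213). Not all were shared between cells. An intronic region of Pzl, a Piezo-like ion channel gene, had 12 counts of which 10 came from 1 cell (chr3R:3255829-3257617), and one in Myo81F had 4 counts, all from 1 cell.

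Promoters of 17 genes named for their residence in heterochromatin, listed with earlier results known, spanned 0.348 to 17.8 counts per kb with a median of 2.0. The median was 1.36 over all pericentromeric promoter regions and 2.61 over those of the rest, and 10 of the 17 genes exceeded the first and 6 the second. The measures differ, since a gene's value pools all its promoter regions (2 for lt, 3 for Dbp80) and the medians are over single regions. By definition as many regions lie above their own median as below it. A gene of the list of 18, Haspin, lies outside the 4 blocks. Cht3 and Parp were matched by their current symbols, Cht10 and Parp1.

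Promoters of the list are given one by one. Gfat1 led with 39 counts over its promoter regions, 17.8 per kb (12.6 to 24.3). RpL5, a protein of the large ribosomal subunit, had 8 counts in 7 cells on 1.01 kb, 7.92 per kb (3.42 to 15.6). Its TSS lies in an unbroken run of pyrimidines in the sequence shown, as is usual for ribosomal protein genes. RpL15, also of the large subunit, had 2 counts in 2 cells, 2.11 per kb (0.255 to 7.62). These intervals overlap, so RpL5 and RpL15 cannot be ordered at this depth. The start of su(f), which acts in the processing of mRNA 3′ ends, had 13 counts in 11 cells, 7.73 per kb (4.12 to 13.2), and eIF4B, a translation initiation factor, had 4 counts in 3 cells, 4.85 per kb (1.32 to 12.4).

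Well-known heterochromatic loci lay below the median of 2.61 of promoters in the rest of the arms, although the intervals of all those named next but Dbp80 reach above it. The promoter regions of light (lt), a subunit of a vesicle tethering complex, had 3 counts in 3 cells, 2.0 per kb (0.412 to 5.84), and that of concertina (cta), a G protein alpha subunit, 4 counts in 4 cells, 1.08 per kb (0.293 to 2.76). Vtd, the Rad21 subunit of cohesin, had 6 counts in 5 cells, 1.80 per kb (0.660 to 3.91). Parp1, the poly(ADP-ribose) polymerase, had 4 counts in 4 cells, 2.14 per kb (0.584 to 5.49), and Dbp80, an RNA helicase, had 7 counts in 7 cells, 1.01 per kb (0.404 to 2.07).

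The lowest values of the list were those of spok, AGO3, Snap25, nvd and Myo81F. Nvd and spok, enzymes of ecdysone synthesis, had 1 count, 0.633 per kb (0.0160 to 3.53), and 4 counts, 0.348 per kb (0.0947 to 0.890). AGO3, a Piwi-family protein of the germ line, had 2 counts, both from 1 cell, 0.399 per kb (0.0483 to 1.44). Snap25, a SNARE protein of synapses, had 10 counts in 8 cells on a promoter region of 19.2 kb, 0.520 per kb (0.249 to 0.956). Myo81F, a myosin-like gene, had 5 counts in 5 cells, 0.647 per kb (0.210 to 1.51). The promoter regions of spok add up to 11.5 kb and were 65.7% unique. Among the higher values, nrm, an adhesion molecule of the immunoglobulin family, had 23 counts in 19 cells, 4.40 per kb (2.79 to 6.60), and Cht10, a chitinase gene, had 10 counts in 8 cells, 5.08 per kb (2.44 to 9.35).

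**Figure D3:**
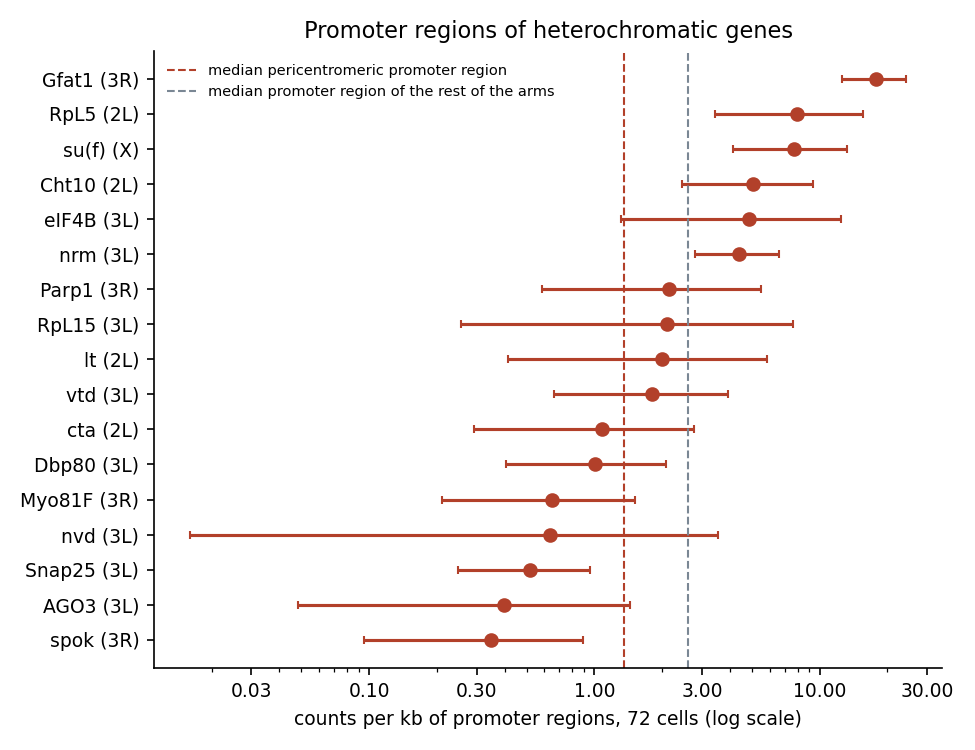
Counts per kb of the promoter regions of 17 heterochromatic genes over 72 cells (log axis), with 95% Poisson intervals and the arm in brackets; dashed lines are the medians of all pericentromeric promoter regions (1.36) and of promoter regions of the rest of the arms (2.61). Gfat1 is highest at 17.8 per kb and spok lowest at 0.348.

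Giant genes hold a large part of the blocks. Myo81F, which spans 1965857 bp, had 605 counts in 69 of 72 cells over its distal members, or 0.398 per kb (0.367 to 0.431). Distal members in Pzl had 0.469 per kb (53 cells), those in Snap25 0.535 (44 cells) and those in lovit, a gene needed for transmission by photoreceptors, 0.428 (48 cells). Higher values were found in nAChRalpha4, a nicotinic receptor subunit, with 1.19 per kb (85.7% unique), and in lncRNA:CR44997 on X, with 1.23 (90.6% unique). Distal members in AGO3 and Parp1 had 0.463 and 0.507. Those in CG40006 had 0.959 per kb, but 49 of their counts came from 1 cell, and without it the value was 0.554. In l(3)80Fj 24 of 42 counts came from 1 cell, and the value was 0.609 per kb with it and 0.261 without it.

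Members with no count were short: their median length was 1239 bp against 2280 bp for all members, and their median uniqueness was 99.7%. They included 33 promoter regions, and most were distal, as are most members. The share of members with a count did not separate the kinds. Its interval was 80.9% to 89.8% for promoter members and 81.1% to 84.8% for distal members. A count of 0 allows up to 3.69 counts over the 72 cells by the exact Poisson interval. The longest, of 19700 bp on 3L, was 26% unique (chr3L:26679374-26699073).

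Cells agreed that the blocks were thin. The share of a cell's counts in pericentromeric regions was 0.481% in the lowest cell (8 of 1664 counts, 0.244% to 0.946%), 2.2% in the median cell and 6.73% in the highest (67 of 996 counts, 5.33% to 8.45%). The density in the blocks over that in the rest of the arms was 0.0456 in the lowest cell, 0.182 in the median and 0.563 in the highest, and it was below 1 in 72 of 72 cells. For promoters the median ratio was 0.30 (0.0695 to 0.816 over cells) and for distal regions 0.193 (0.0484 to 0.647). Block by block it was below 1 in 72 cells for 3L and for 3R, in 70 for 2L and in 67 for X. The share varied 12.6 times as much between cells as binomial counting allows, and the variance ratio was 11.8 for 3R, 8.88 for 3L, 7.61 for 2L and 4.09 for X, so the intervals of pooled values are too narrow for the spread between cells. No such ratio was computed outside the blocks, where shares also varied: the rest of 2L held 9.01% to 30.7% of a cell's counts. Excess spread is therefore not shown to be particular to the blocks.

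The share of a block followed the share of its own arm weakly over the 72 cells, with r = 0.365 for 2L (Spearman 0.388), 0.274 for 3L (0.315), 0.0215 for 3R (0.0802) and 0.371 for X (0.356). Between the 3L and 3R blocks, which flank the same centromere, r was 0.432 (0.577). For the other 5 pairs of blocks r lay between -0.157 and 0.198. All shares of a cell have the same total below them, and these values are descriptions without a test.

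**Figure D4:**
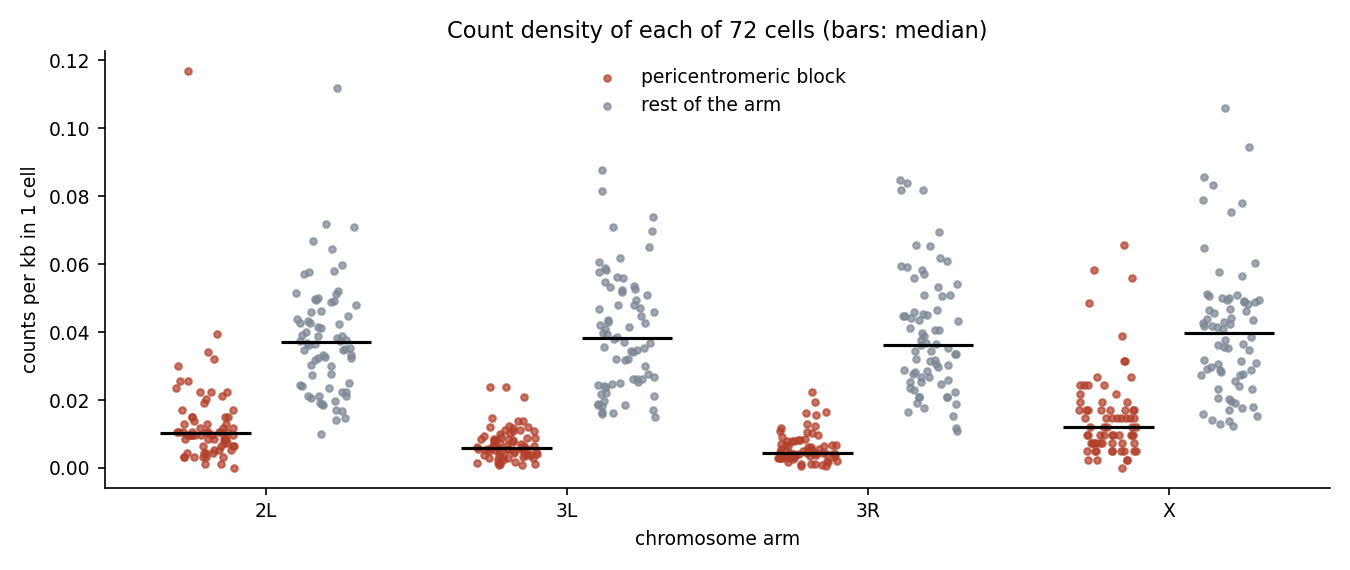
Counts per kb in each of 72 cells, in the pericentromeric block and in the rest of the arm, for 2L, 3L, 3R and X; each point is a cell and the bar is the median. Nearly all cells are lower in the block; 1 cell stands apart at 0.117 counts per kb in the 2L block and 0.112 in the rest of 2L.

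Some counts of the blocks came in clusters from single cells. Entries of at least 5 counts held 6.73% of pericentromeric counts, against 1.45% in the rest. The table's largest entry, 15 counts of 1 region in 1 cell, was in a 33158 bp member on 3L that had 18 counts in 3 cells in all (chr3L:27901855-27935012, 39.3% unique). Entries of at least 8 counts were found in 10 of the 1777 members (0.563%, background 0.0314%), all of them distal. Of the entries above 0, 1.22% were at least 5 in the blocks (45 of 3690, 0.913% to 1.63%) and 0.314% in the rest. Entries of at least 2 were alike, at 16% and 15.2%. The excess was present in members with at least 90% unique 50-mers, at 0.739% against 0.314%, and larger in the others, at 1.60% against 0.317%. Long regions can gather more counts of a cell, and at like length the blocks differed less from the rest. In regions of 500 bp to 1 kb the blocks had 0 of 540 such entries, against 0.161% in the rest. The shares were 0.590% (4 of 678) and 0.423% at 1 to 2 kb, and 1.55% (13 of 837) and 0.948% at 2 to 5 kb. At 5 to 20 kb they were 1.39% (18 of 1299) and 0.771%.

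To see how far such clusters reach, counts were summed in windows of 100 kb laid out from each boundary, a step added after the large entries had been seen. In windows with at least 20 counts, the cell with most counts held a median of 14.3% of them in 91 pericentromeric windows and 7.52% in 946 windows of the rest. It held at least 25% in 22 pericentromeric windows (24.2%, background 1.80%), 12 on 3R, 5 on 3L, 5 on 2L and 0 on X, and 12 different cells were responsible. Some windows reach 20 counts only through their leading cell. With 20 counts required outside that cell, 14 of 78 pericentromeric windows remained at or above 25% (17.9%, background 1.80%), 7 on 3R, 5 on 2L, 2 on 3L and 0 on X, in 9 cells, and the highest share was 56.2%. This floor was chosen after seeing the data. The leading share is larger where a window has few counts. With 20 to 60 counts only, the leading cell held a median of 15.6% (highest 71.7%) in 71 pericentromeric windows and 10.0% (highest 13.8%) in 17 windows of the rest.

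By the leading cell's share, the window nearest the 3L centromere was the most uneven. Relative to the depth of the cell it stood at 44.9 times, where the highest pericentromeric window, on 3R, stood at 60.3 times. A cell of 3156 counts had 38 of the 53 there (71.7%), spread over 9 regions with up to 14 in one, while it had 1.60% of all counts in the table. In the adjacent window the same cell had 15 of 34 counts, all in 1 region. The 2 regions that had 14 and 10 counts in it lie side by side in l(3)80Fj and were 98.2% and 88.6% unique (chr3L:28005739-28008878 and chr3L:28008879-28011713). All other cells together had 2 counts in the first and 0 in the second.

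Similar clusters lay on 3R and 2L in other cells. In a window inside Myo81F, 31 of 59 counts came from a cell of 2558 counts, in 10 regions, and in one that holds the 5′ end of Pzl 27 of 48 came from a cell of 3574 counts, in 9 regions. A shallower cell, with 0.739% of all counts, had 24 of 64 in another window. On 2L the deepest cell of the table, with 5892 counts, led 4 of the 5 windows at or above 25%. It had 44 of 99 counts in one that was 90.7% unique, in 18 regions. This cell was also high in the rest of 2L, with 23.2% of its counts there. Without it the ratio for the 2L block was 0.318 in place of 0.348. Without the leading cell of every window the ratio for all blocks was 0.181 in place of 0.198. The cause of these clusters was not tested.

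**Figure D5:**
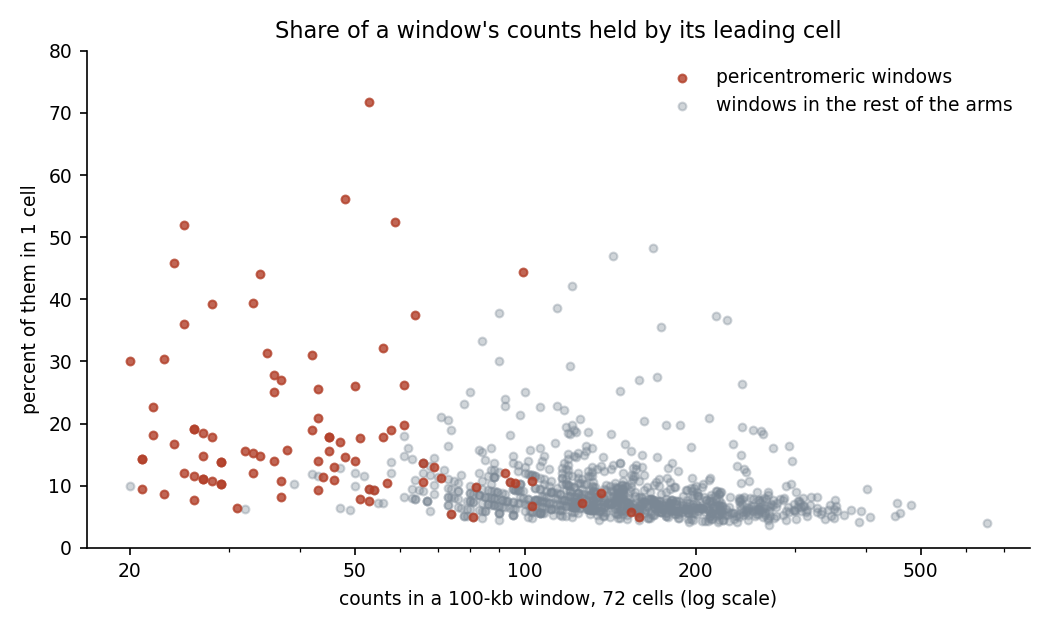
Percent of a 100-kb window's counts held by its leading cell, against the counts of the window over 72 cells (log axis), for 91 pericentromeric windows and 946 windows of the rest of the arms with at least 20 counts. Pericentromeric windows reach 71.7% and the others 48.2%, and 22 pericentromeric windows lie at or above 25%.

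Uneven spread over cells was also seen region by region. For members of 10 or more counts, the ratio of the variance between cells to the Poisson value had a median of 2.19 in 47 distal regions (highest 11.3) and of 1.24 in 25 promoter regions. In the rest of the arms the medians were 1.30 for distal and 1.24 for promoter regions. A region can reach 10 counts through 1 cell alone, which sets a high ratio. With 10 or more counts required outside the leading cell, the median was 1.45 in 16 distal members (highest 8.22) and 1.21 in 16 promoter members, against 1.28 and 1.24 in the rest, so the distal value depends on that selection. At the median, promoter counts of the blocks were spread over cells as evenly as promoter counts elsewhere.

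The region with most counts of all members was the first listed region of 3R, 195680 bp long and 15.7% unique, with 43 counts in 21 cells, 11 of them from 1 cell. Its density was only 0.220 per kb (0.159 to 0.296). The stretch printed from its centre has 26.7% G and C, against 53.2% over the whole region. By contrast a 30284 bp region near the 3R edge, 41.7% unique, had 26 counts in 24 cells and never more than 2 in a cell (chr3R:4004915-4035198).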

How the data were processed

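Single-cell ATAC-seq was measured in sens-GFP+ cells of eye-antennal discs. According to the study's methods and processing notes, the authors trimmed reads with fastq-mcf, mapped them with Bowtie2 (2.2.5), removed duplicates with picard and chose cells by hand. The table the authors deposited holds raw, whole-number counts for each cell in the cisTarget regions of dm6. The counting tool, whether reads or fragments were counted, any Tn5 shift and the read length are not given in the sources used here. Repeat reads and large regions can therefore shift counts.

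All 72 columns matched 1 label each, 0 were left unused, and the other labels were not analysed here. Counts were summed over cells and divided by region length. TSS came from Ensembl (BDGP6.54), and a promoter region lay within 500 bp of one. Unique 50-mers were counted on both strands of the RefSeq Release 6 genome. A 50-mer with an unknown base (N) counted as not unique, and such bases stayed in the lengths of regions. In the length reweighting, densities of other regions within the length deciles of the pericentromeric regions were weighted by the pericentromeric bases of each decile. Python 3.11.15, numpy 2.4.6, pandas 2.3.3 and scipy 1.17.1 were used, and the code was tested on simulated data.

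The members and lists were chosen with earlier results of these data known. Regions named were the 10 densest promoter and 10 densest distal members of at least 200 bp, the member with most counts in each block, the one with most cells, the one with the largest entry, and promoters of the 18 listed genes. Giant host genes, members at 0, window clusters and the broad 3R region were named after their values were seen. No p-value was computed, since there was 1 sample.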

Additional observations from a re-analysis of the deposited data

How the results depend on the processing

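The pericentromeric density stayed below that of the rest of the arms under every alternative run, so no density ratio changed direction. The share of regions with a count did change sides. It was 83.4% against 81.1% in the main run and 79.1% against 81.2% among regions with at least 90% unique 50-mers. The size of the gap did move. The ratio lay between 0.170 and 0.660 for all regions, 0.209 and 0.755 for promoters, and 0.198 and 0.698 for distal regions.

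Boundaries moved 300 kb towards the centromere gave a density of 0.480 counts per kb, ratios of 0.170 (all), 0.209 (promoter), 0.199 (distal), 0.280 (2L), 0.170 (3L), 0.138 (3R), 0.265 (X) and 0.386 (regions with at least 90% unique 50-mers), 85.9% of regions with a count, a promoter share of 16% and a median cell share of 1.62%. Moved 300 kb away they gave 0.707 per kb, ratios of 0.248, 0.438, 0.249, 0.423, 0.216, 0.196, 0.452 and 0.598 in the same order, a promoter share of 29.7% and a median cell share of 3.0%.

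Unique regions alone gave 1.37 per kb, ratios of 0.464 (all), 0.667 (promoter), 0.461 (distal), 0.623 (2L), 0.402 (3L), 0.391 (3R) and 0.503 (X), 79.1% with a count, a promoter share of 33.3% and a median cell share of 0.994%. Counts per unique kb gave 1.06, with ratios of 0.358, 0.444, 0.402, 0.502, 0.327, 0.324 and 0.452. With 36-mers and 75-mers the ratio of unique regions was 0.506 and 0.422.

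Length reweighting gave ratios of 0.660 (all), 0.755 (promoter), 0.698 (distal), 0.730 (2L), 0.658 (3L), 0.362 (3R), 0.539 (X) and 0.564 (unique regions). Comparison with the adjacent 3 Mb gave 0.221 (all), 0.253 (distal), 0.164 (3R) and 0.528 (X).

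One count per region and cell at most gave 0.442 per kb and ratios of 0.187 (all), 0.202 (distal), 0.170 (3L) and 0.137 (3R), equal weight of cells 0.165 (3R), and leaving out the cell with most pericentromeric counts 0.542 per kb and 0.318 (2L). Without the 5 members with most counts the promoter ratio was 0.270. A promoter distance of 100 bp gave a promoter ratio of 0.263 and a promoter share of 16.8%, and one of 1000 bp a share of 24%.

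Alternatives chosen after seeing the data were uniqueness with length, at 0.564 (all), 0.725 (promoter) and 0.592 (distal), leaving out entries of 5 or more, at 0.524 per kb and 0.187 (all), 0.204 (distal), 0.171 (3L) and 0.138 (3R), and leaving out the leading cell of each window, at 0.470 per kb, 0.181 (all), 0.198 (distal), 0.314 (2L), 0.165 (3L), 0.134 (3R), 0.436 (unique regions), 78.7% with a count and a promoter share of 22.6%. Count floors set outside the leading cell gave 14 pericentromeric windows at or above 25% in place of 22, and a median variance ratio of 1.45 in distal members in place of 2.19. Apart from what each alternative changes by its own construction, the cause of these shifts was not tested. Of the other values under alternatives, 94 stayed within the counting interval and 42 were not touched by the alternative.

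No paired analysis was possible because all cells form 1 group. With 1 sample there is no spread between animals, most members have too few counts to be ordered among themselves, and reads from repeats cannot be assigned to a copy.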
